A study of Homo sapiens with 12 samples.

Results

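The 2 keratin gene clusters were examined in peak lists of H3K27ac, an acetylation of histone H3 that marks active promoters and enhancers, as mapped by chromatin immunoprecipitation and sequencing. The members were all peaks of 8 lists that overlap the type II cluster on chromosome 12, a window of 810 kb, or the type I cluster on chromosome 17, a window of 1000 kb (hg19). They were 336 of 224362 peaks, and peaks that overlap by at least 1 base merged into 128 of 70648 regions, 61 in the type II and 67 in the type I window. The lists came from 5 established, untreated human cancer cell lines whose titles carry no Empty, Control or e3KRAB. H358 and H2009 are lung adenocarcinoma lines with replicates 1 and 2 each, HCC95 is a squamous lung carcinoma line with 1 library, and Ishikawa is an endometrial carcinoma line with replicates 1 and 2. BICR31 has 1 library. Its sample label reads lung adenocarcinoma, whereas the design text of the series calls it a head and neck squamous line, and the design text was followed here. One antibody, ab4729, was used in all libraries, and each group stands for 1 or 2 lines rather than for a tumour type.

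Keratins are the intermediate filament proteins of epithelial cells and assemble as pairs of a type I and a type II chain. Simple epithelia, such as those of glands and the lung lining, are known for KRT8 with KRT18, joined by KRT7 and KRT19. The basal layer of stratified epithelia is known for KRT5 with KRT14, and KRT6A, KRT16 and KRT17 are the keratins of wounded, activated and squamous tumour epithelium. KRT18 is a type I gene that lies beside KRT8 at the far end of the type II cluster.

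The start of KRT5 carried a peak in both squamous lines and in no other line, that of KRT4 in H358 alone and that of KRT34 in BICR31 alone, while KRT8 held peaks in its window in every library. For these 4 genes the 250 bases before the start are shown, read from RefSeq on GRCh38.p14. Capitals mark the letters TATAAA or ATAAAA on either strand. These positions are on another build than the peaks and were not converted. By its distance from the KRT5 and KRT4 stretches, the KRT8 stretch falls in chr12:53318405-53322083 (hg19), a region of all lines. It thus lies away from the hand-placed start used for the peaks of KRT8.
KRT5 (GRCh38.p14, chr12:52520395-52520644, minus strand): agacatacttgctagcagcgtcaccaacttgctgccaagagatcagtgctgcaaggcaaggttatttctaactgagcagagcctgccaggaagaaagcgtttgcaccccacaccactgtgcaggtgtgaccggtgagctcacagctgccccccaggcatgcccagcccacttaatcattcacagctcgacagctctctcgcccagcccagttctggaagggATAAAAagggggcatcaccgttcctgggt
KRT8 (GRCh38.p14, chr12:52926470-52926719, minus strand): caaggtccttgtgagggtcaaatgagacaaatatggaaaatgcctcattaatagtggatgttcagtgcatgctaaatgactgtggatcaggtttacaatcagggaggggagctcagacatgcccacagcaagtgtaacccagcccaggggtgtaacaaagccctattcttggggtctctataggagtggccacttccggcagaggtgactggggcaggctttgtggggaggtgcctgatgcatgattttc
KRT4 (GRCh38.p14, chr12:52814117-52814366, minus strand): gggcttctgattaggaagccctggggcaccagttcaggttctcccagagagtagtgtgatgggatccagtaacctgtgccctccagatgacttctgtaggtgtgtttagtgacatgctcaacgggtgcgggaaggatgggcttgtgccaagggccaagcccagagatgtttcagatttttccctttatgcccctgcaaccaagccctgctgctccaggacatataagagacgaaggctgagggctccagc
KRT34 (GRCh38.p14, chr17:41382307-41382556, minus strand): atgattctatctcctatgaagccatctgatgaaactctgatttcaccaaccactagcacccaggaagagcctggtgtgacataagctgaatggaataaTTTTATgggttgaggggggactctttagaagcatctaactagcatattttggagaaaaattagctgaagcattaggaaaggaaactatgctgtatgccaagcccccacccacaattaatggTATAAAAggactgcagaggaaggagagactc

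In the KRT5 stretch ATAAAA began 29 bases before the start, and in that of KRT34 TATAAA began 31 bases before it. Neither motif was found in the stretches of KRT8 and KRT4. RefSeq promoters were matched for 34 of 54 keratin genes, among them 2 of the 9 genes compared below. KRT7, KRT18, KRT19, KRT6A, KRT14, KRT16 and KRT17 had no entry. TATAAA, searched on both strands, stood in 20 of the 34 keratin stretches (58.8%) and in 10.7% of 35116 promoter stretches of the same length. ATAAAA, which can overlap TATAAA, stood in 22 of 34 (64.7%) and in 14.8% of all. GGGCGG, the GC box, stood in 4 of 34 (11.8%) against 42.6% of all, and CCAAT in 16 of 34 (47.1%) against 32.0%. TGANTCA stood in 0 of 34 and in 6.57% of all. The median GC content was 44.6% in the keratin stretches and 58.0% in all. The keratin stretches thus held TATA-like letters more often, and GC boxes less often, than promoters at large, as a description of these letters alone.

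The lists differed before any keratin was looked at. H358 and H2009 lists held 26412 to 26954 peaks over 10.9 to 12.04 Mb with median widths of 347 to 382 bp, HCC95 held 23400 peaks over 21.4 Mb, BICR31 held 42148 over 40.6 Mb, and the Ishikawa lists held 24384 and 27311 over 41.4 and 32.5 Mb. The H358 and H2009 lists were in narrowPeak form, the 2 squamous lists in broadPeak form and the Ishikawa lists in a 5-column form, so the tumour type of a line cannot be told apart from how its peaks were called. Read depth is unknown, since the lists hold no read counts. The epithelial genes EPCAM and CDH1 had a peak at their start in 8 of 8 libraries, and the mesenchymal gene VIM and the blood gene PTPRC in 0 of 8. In their windows VIM had 1 peak in 6 of 8 libraries, and PTPRC had 3 or 4 peaks in H358 replicate 1, BICR31 and both Ishikawa libraries and none in the rest. Of the squamous markers, TP63 had 8 and 7 peaks in its window in HCC95 and BICR31, 2 or 3 in H358 and H2009, and 7 in each Ishikawa library. SOX2 had a start peak in both H358 libraries, H2009 replicate 2, HCC95 and BICR31. The hand-placed start of TP63 had no peak in any library. The lung adenocarcinoma marker NKX2-1 had a peak at its start in H358 replicate 1 and BICR31 and no peak in H2009, and NAPSA had a start peak in no library. The endometrial marker ESR1 had one in both Ishikawa libraries and PAX8 in Ishikawa replicate 2, so the markers follow the labels in part.

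Keratin peaks made up the smallest part of the lists in H358 and the largest in BICR31. H358 had 29 and 28 peaks in the windows (0.108% and 0.104% of each list), H2009 had 35 and 41 (0.130% and 0.155%), HCC95 had 45 (0.192%), BICR31 had 92 (0.218%) and Ishikawa had 31 and 35 (0.127% and 0.128%). Called bases are bases inside peaks. Per Mb of called bases of the list, the windows held 944 and 890 in H358, 1391 and 1387 in H2009, 2104 in HCC95, 2501 in BICR31 and 1622 and 2083 in Ishikawa. Both squamous lines were above the other libraries on this scale, HCC95 by little over Ishikawa replicate 2. Replicates covered the same keratin bases more than different lines did. The Jaccard index, the bases shared by a pair of lists over the bases in either, was 0.383 for H358, 0.419 for H2009 and 0.556 for Ishikawa replicates. Across the genome these were 0.444, 0.405 and 0.631. For HCC95 against BICR31 it was 0.217 in the windows and 0.274 across the genome. For the 24 other pairs of libraries from different lines it was 0.0713 to 0.270 in the windows. The median of those 24 pairs was 0.106 in the keratin windows and 0.223 across the genome. Unlike widths limit the index, as H358 replicate 1 had 11113 called bases in the windows and BICR31 had 101573. Replicates of a line also share a file form.

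Regions with a peak in HCC95 and BICR31 and in no other line made up a larger part of the keratin regions than of all regions. There were 13 of 128 (10.2%), against 3.56% of all 70648 merged regions. BICR31 alone held 38 (29.7%, background 21.9%), whereas regions of all 5 lines numbered 7 (5.47%, background 12.1%). HCC95 alone held 7 (5.47%, background 6.2%) and Ishikawa alone 7 (5.47%, background 5.11%), both near their background. Regions of all lines but Ishikawa numbered 3 (2.34%, background 0.702%), and those of H2009 and BICR31 numbered 3 (2.34%, background 0.822%). H2009 alone held 2 (1.56%, background 1.27%), H358 alone 1 (0.781%, background 1.32%), and H358 with H2009 held 0 (background 0.497%). In another 40 regions (31.25%, background 38.7%) the replicates of a line differed. The excess of squamous regions over the background depended on how the lists were cut. In the higher-ranked 50% of each list by the authors' value there was 1 of 41 (2.44%, against 2.16% of all regions), and in lists of equal length 3 of 87 (3.45% against 2.27%). Where 50% of the region had to be covered there were 7 of 128 (5.47% against 3.43%). Ranked by −log10 q there were 2 of 51 (3.92% against 2.71%) in the higher-ranked 50% and 9 of 93 (9.68% against 2.56%) in lists of equal length. For the Ishikawa lists, which hold no q, the score was used here.

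**Figure D1:**
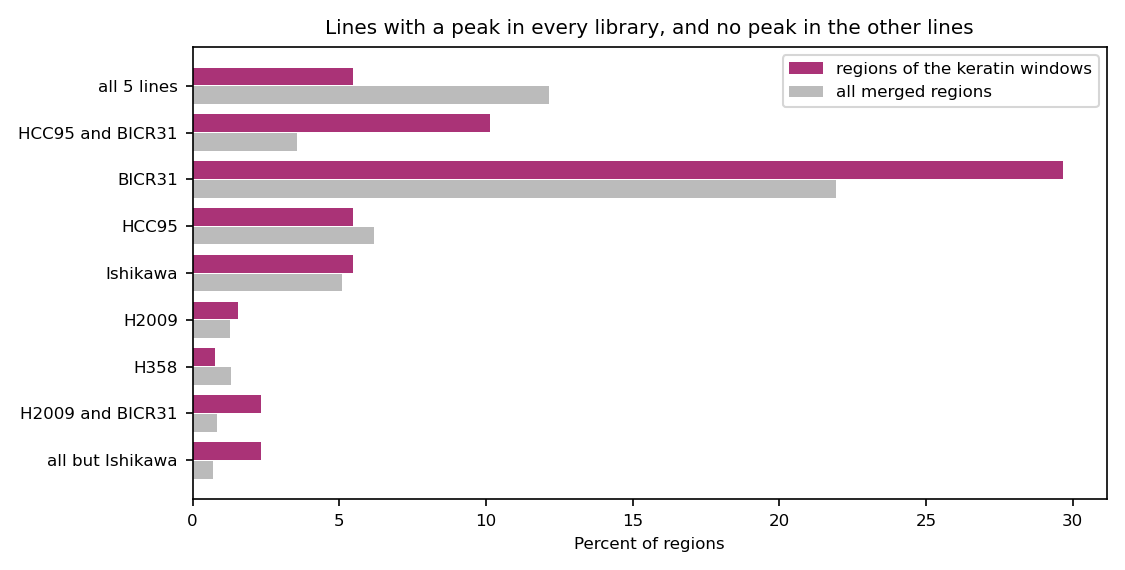
Percent of merged regions (horizontal axis) with each pattern of lines (vertical axis), in the keratin windows and over all merged regions. Regions of HCC95 and BICR31 are 10.2% of the keratin regions against 3.56% of all, and regions of all 5 lines are 5.47% against 12.1%.

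For single genes, called bases were counted in a window of the gene body with 5 kb on each side, cut midway to the next keratin gene, and a start peak is one within 1 kb of the gene start. Gene positions were placed by hand in hg19, their order was that of RefSeq in all but KRT81 and KRT86, whose windows are therefore uncertain, and exons and introns were not assigned. Squamous and other lines were compared in called bases per Mb of called bases of the list with an exact two-sided permutation test over 5 lines, which has 10 assignments and cannot go below p = 0.1. The 9 genes were tested, and p-values are given unadjusted.

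KRT18 and KRT8, the type I and type II chains of simple epithelia, had peaks in every line. KRT8 held 261 and 743 called bases in H358, 623 and 339 in H2009, 1464 in HCC95, 2079 in BICR31, and 6388 and 6228 in Ishikawa. Ishikawa was highest, and on the scaled measure too (154 and 192 per Mb, against 22.2 to 68.3 in the 6 other libraries). One region at chr12:53296430-53302817 carried all 5 lines, although only BICR31 and the Ishikawa libraries had a peak within 1 kb of the hand-placed start. KRT18 held 609 and 591 bases in H358, 251 and 329 in H2009, 871 in HCC95, 1054 in BICR31, and 3166 and 3692 in Ishikawa. All 8 libraries had a peak at its start, in the region chr12:53341550-53344928. Between the 2 genes a further region of all lines lay at chr12:53318405-53322083, where the printed RefSeq stretch of KRT8 falls. It lies in no gene window and is not counted for KRT8 or KRT18. Squamous lines and the others overlapped at both genes. The squamous and other means were 59.8 and 86.2 per Mb for KRT8 (exact permutation p = 1) and 33.3 and 57.1 for KRT18 (exact permutation p = 0.5).

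KRT19, a type I chain with a shortened tail domain, had a start peak in 7 of 8 libraries. It held 584 and 0 called bases in H358, 559 and 711 in H2009, 2322 in HCC95, 2351 in BICR31, and 2589 and 2239 in Ishikawa. H358 replicate 2 was the library without a peak. The means were 83.1 per Mb in squamous and 49.1 in other lines (exact permutation p = 0.4), and the groups overlapped. The start region was chr17:39683193-39685839, with 1213 called bases in HCC95, 1333 in BICR31, and 2589 and 2239 in Ishikawa. The rest of the HCC95 and BICR31 bases lay in chr17:39674713-39678793. That region lies at the start of the basal gene KRT15 and is cut between the windows of KRT15 and KRT19. The higher squamous mean thus includes bases of a region at KRT15.

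KRT7, the simple chain of glandular and ductal cells, differed from the other simple genes. It held 0 and 0 called bases in H358, 0 and 251 in H2009, 2512 in HCC95, 3598 in BICR31, and 2962 and 0 in Ishikawa. Per Mb, HCC95 (117) and BICR31 (88.6) were above all other libraries, of which Ishikawa replicate 1 was nearest at 71.5. The means were 103 and 15.6 (exact permutation p = 0.1, the smallest possible). The squamous peaks did not lie at the start. One region shared by both lines alone lay at chr12:52637116-52638560, and a start peak was present in H2009 replicate 2 and Ishikawa replicate 1.

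KRT5 and KRT14, the pair of the basal layer, carried called bases mostly in the squamous lines. KRT5 held 0 in all 4 H358 and H2009 libraries, 1619 in HCC95, 3149 in BICR31, and 1227 and 0 in Ishikawa. The region chr12:52913607-52917274 spans its start, and its Ishikawa replicate 1 peak lay outside 1 kb of the start. HCC95 had a second region upstream at chr12:52917937-52919263. The means were 76.6 per Mb in squamous and 4.94 in other lines (exact permutation p = 0.1). KRT14 held 247 and 0 in H358, 0 and 0 in H2009, 2448 in HCC95, 1952 in BICR31, and 0 and 0 in Ishikawa. The means were 81.2 and 3.50 (exact permutation p = 0.1). HCC95 had a start peak in chr17:39743448-39745485, while BICR31 had none at the start and lay downstream in chr17:39736032-39737983. The 247 called bases of H358 replicate 1 also lay at the start. KRT15, the other basal type I chain, held 2972 in HCC95 and 1012 in BICR31 with start peaks in both. It held 267 and 279 in H358 replicate 1 and H2009 replicate 1 and 0 in the other 4 libraries.

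KRT6A and KRT17, keratins of activated epithelium, had peaks in the squamous lines and 0 called bases in all 6 other libraries. KRT6A held 1297 in HCC95 and 1927 in BICR31, with a start region at chr12:52886275-52887772. Its means were 54.0 and 0 per Mb (exact permutation p = 0.1). KRT17 held 1419 in HCC95 and 4001 in BICR31, with a start region at chr17:39779379-39782557, and its means were 82.4 and 0 (exact permutation p = 0.1). KRT6B and KRT6C, close paralogs of KRT6A, showed the same pattern, with 567 and 403 called bases in HCC95 and 1263 and 597 in BICR31. Reads from such near-identical copies may be split or lost, and their handling is not stated, so the 3 KRT6 genes are uncertain as separate genes.

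KRT16, the activated partner of KRT6A, did not follow this pattern. It held 584 and 288 called bases in H358, 364 and 353 in H2009, 403 in HCC95, 1067 in BICR31, and 0 and 0 in Ishikawa. Its region chr17:39768586-39769925 lay at the start and was found in every library of the 4 other lines. The means were 22.5 per Mb in squamous and 22.99 in other lines (exact permutation p = 1). The lung adenocarcinoma and squamous libraries overlapped, and Ishikawa was below them all.

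Per Mb of called bases, KRT7, KRT5, KRT6A, KRT14 and KRT17 of the 9 genes had both squamous libraries above every other library, and each gave the smallest p that its test allows. Across the genome, 5.85% of 56889 tiles of 15 kb with a peak in any library had both squamous libraries above every other. For KRT7 this held on the scaled measure alone, since Ishikawa replicate 1 (2962 called bases) was above HCC95 (2512) unscaled. Its exact permutation p was 0.5 at a 20 kb flank and 0.2 without Ishikawa replicate 2. In the higher-ranked 50% of each list by the authors' value the differences of KRT5, KRT6A, KRT14 and KRT17 were 0. In lists of equal length by that value, and in the higher-ranked 50% by −log10 q, these 4 genes had an exact permutation p of 0.4. In lists of equal length by −log10 q, where HCC95 is not cut, the exact permutation p of these 4 genes stayed 0.1. The differences of KRT5, KRT6A, KRT14 and KRT17 were then 93.0, 67.2, 90.7 and 94.0 per Mb. With the 8 libraries permuted in place of the 5 lines, their p was 0.0357, the smallest of 28 assignments, but replicates of a line are not independent lines. Among peaks of the same list, the KRT5 peaks of HCC95 and BICR31 ranked low by the authors' fold enrichment (0.517 and 1.15 percentile) and near the middle by −log10 q (42.0 and 56.5). For KRT17 the percentiles were 1.65 and 2.22 by fold enrichment and 47.5 and 85.1 by −log10 q.

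**Figure D2:**
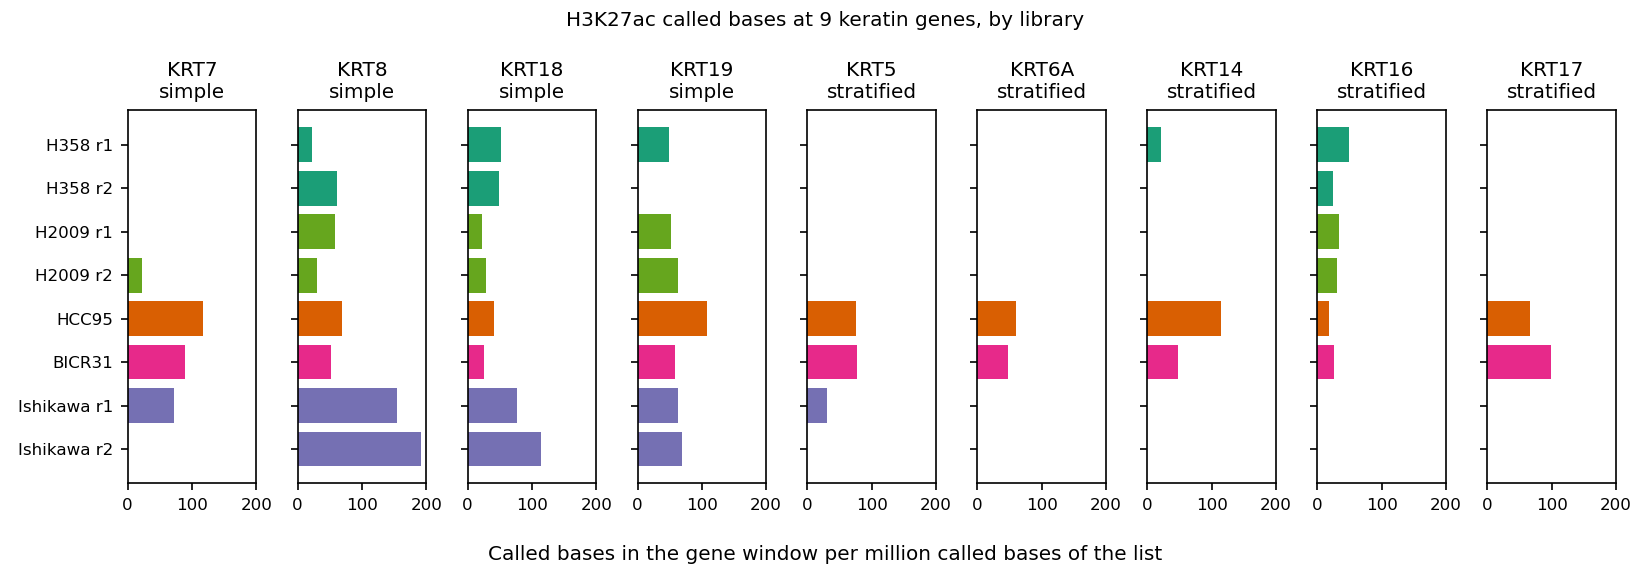
Called bases in each gene window per Mb of called bases of the list (horizontal axis) for 4 simple and 5 stratified keratins, 1 bar per library (r1 and r2 are replicates). KRT6A and KRT17 have bars in HCC95 and BICR31 alone, KRT16 in all but Ishikawa, and KRT18 in every library.

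**Figure D3:**
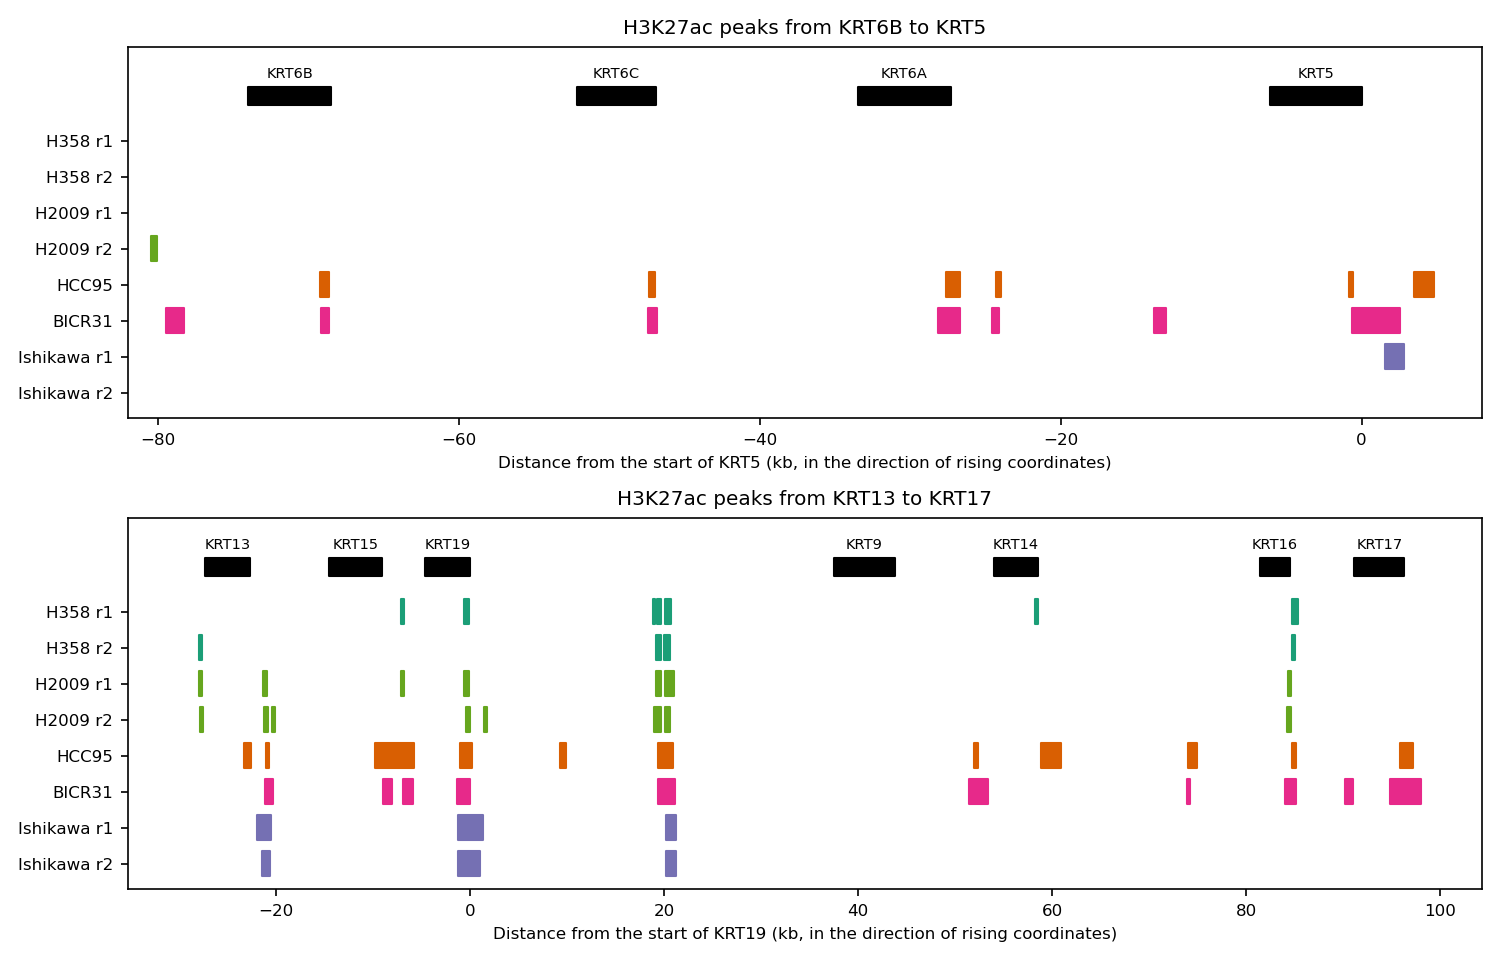
Peaks of each library (coloured blocks) and gene bodies (black) along the stretches from KRT6B to KRT5 and from KRT13 to KRT17, by distance in kb from the start of KRT5 or KRT19. HCC95 and BICR31 hold blocks at KRT6B, KRT6C, KRT6A, KRT5 and KRT17, while a block near 20 kb from the start of KRT19 is present in all 8 libraries.

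The simple part (KRT7, KRT8, KRT18 and KRT19) and the stratified part (KRT5, KRT6A, KRT14, KRT16 and KRT17) were then summed, over windows of 69.6 and 71.8 kb. In called bases the simple and stratified parts were 1454 and 831 in H358 replicate 1 and 1334 and 288 in replicate 2. They were 1433 and 364, then 1630 and 353, in the H2009 replicates. HCC95 had 7169 and 7186, BICR31 had 9082 and 12096, and the Ishikawa replicates had 15105 and 1227, then 12159 and 0. The stratified share of the sum was thus 57.1% in BICR31 and 50.1% in HCC95. It was 27.1% ± 13.2 (SD, n = 2) in H358, 19.03% ± 1.74 (SD, n = 2) in H2009 and 3.76% ± 5.31 (SD, n = 2) in Ishikawa. Every squamous value was above every other, the nearest being H358 replicate 1 at 36.4%. Through the window of KRT19, the simple part of HCC95 and BICR31 includes bases of the region at the KRT15 start. The same holds to a lesser extent for H358 replicate 1 and H2009 replicate 1. KRT15 itself is in neither part. No test was made of either sum or of the share. The region chr12:53318405-53322083, where the printed KRT8 stretch falls, lies in no gene window and is in neither sum. It held 1214 and 743 called bases in H358, 945 and 289 in H2009, 292 in HCC95, 2855 in BICR31, and 3658 and 3285 in Ishikawa. The share thus depends on the hand-placed KRT8 position, and it was not counted with this region added. The bases of a peak are not independent, so no counting interval is given.

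The order did not survive ranking by the authors' value. In the higher-ranked 50% of each list the share was 100% in H358 replicate 1 and both H2009 libraries and 0% in HCC95, BICR31 and Ishikawa, and H358 replicate 2 had no called bases left in either part. Ranked by −log10 q in lists of equal length it was 41.1% and 0% in the H358 replicates, 20.3% and 20.4% in H2009, 50.1% in HCC95, 71.3% in BICR31, and 7.51% and 0% in Ishikawa. HCC95, the shortest list, sets the length of 23400 peaks and is not cut, so its share is the main one. The Ishikawa lists hold no q, and their score stood in for it. In the higher-ranked 50% by −log10 q it was 100% and 0% in the H358 replicates, 32.7% and 31.97% in H2009, 0% in HCC95, 68.3% in BICR31 and 0% in Ishikawa. Start peaks gave a count without widths, but the share of all gene starts with a peak was not counted. As a rough background, 66.9% of 15 kb tiles with a peak in any library had one in BICR31 and 40.4% in HCC95. This share was 36% to 41.4% in the other libraries. Of the 5 stratified genes, HCC95 had start peaks at 5 and BICR31 at 4, against 2 and 1 in H358, 1 and 1 in H2009 and 0 and 0 in Ishikawa. Of the 4 simple genes the counts were 2, 3, 2 and 1, 2 and 3, and 4 and 3 in the same order of lines. KRT8 was counted at its hand-placed start, and its count depends on that choice.

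**Figure D4:**
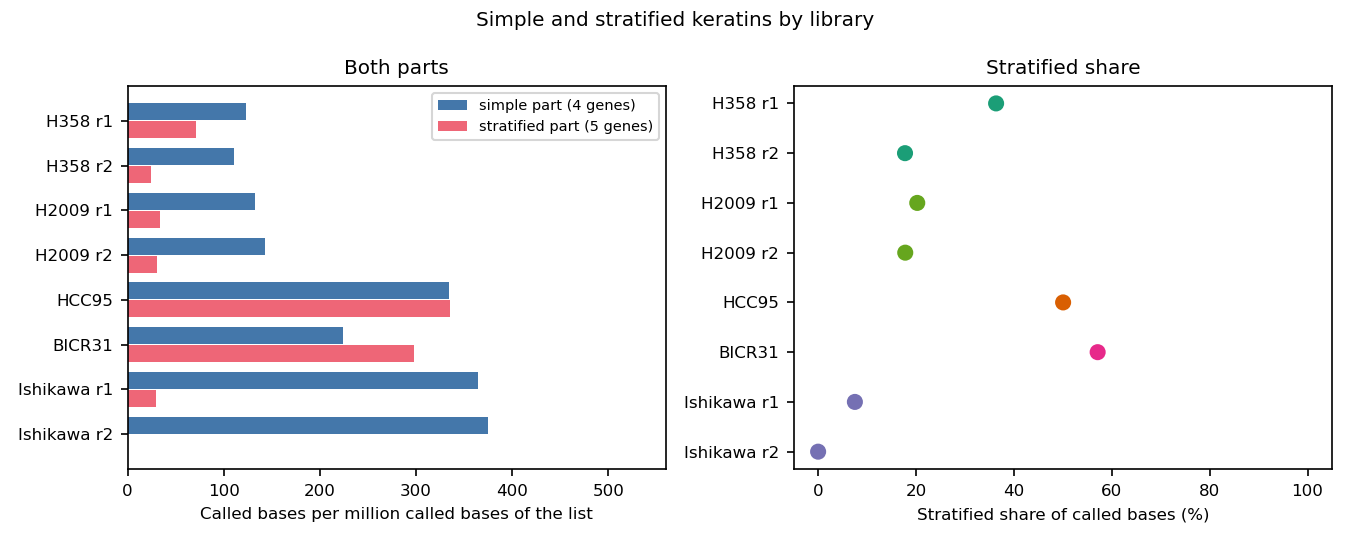
Left, called bases of the simple and the stratified part per Mb of called bases of the list (horizontal axis), by library. Right, the stratified share in percent: HCC95 and BICR31 lie at 50.1% and 57.1%, the other libraries at 36.4% or below.

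Of the remaining keratins, 10 of 14 suprabasal genes and 16 of 26 hair keratin genes held a peak in their window in any library. BICR31 held a peak in 9 of the 10 suprabasal genes (90%) and the other libraries in 3 to 5 (30% to 50%). Of the 16 hair genes BICR31 covered 13 (81.25%), HCC95 covered 7 (43.75%), and the others 1 to 4 (6.25% to 25%). BICR31 has the longest list, and these counts are to be read beside its background. Of the 15 kb tiles with a peak in any library, 66.9% had one in BICR31 and 40.4% in HCC95. The share was 36.8% and 36% in the H358 replicates, 37.2% and 36.2% in H2009, and 41.4% and 40% in Ishikawa. KRT80, a type II chain of many epithelia, had peaks in all 8 libraries, from 254 called bases in H358 replicate 2 to 6641 in Ishikawa replicate 1. KRT10, a chain of the differentiating epidermis, had a region in all lines at chr17:38974379-38975978 but no start peak in any library. KRT13, of non-keratinizing stratified epithelia, held peaks in 7 of 8 libraries, and H358 replicate 1 had none. KRT4, its type II partner, had peaks in H358 alone, with 302 and 261 called bases at the start. KRT34, a hair keratin, had 2385 called bases in its window in BICR31, 503 of them within 1 kb of the start, and 0 in the other libraries. KRT20, of gut epithelium, had no peak in any library.

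Other keratin genes with peaks in at least 2 libraries split by line in several ways. KRT23, a type I chain counted with the simple keratins, held 0 and 274 called bases in H358, 564 and 504 in H2009, 0 in HCC95, 2210 in BICR31, and 0 and 2669 in Ishikawa. Its Ishikawa replicates thus differed. KRT78, a type II chain, held 417 and 719 in H358 and 1226 in BICR31, 350 and 726 in the second replicates of H2009 and Ishikawa, and 0 in the other 3 libraries. KRT3, the corneal type II chain, held 265 in H358 replicate 1 and in H2009 replicate 2, 1316 in HCC95, 1062 in BICR31 and 0 in the rest. KRT77 held 805 in BICR31 and 680 and 438 in Ishikawa.

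Among hair keratins, KRT85 had called bases in Ishikawa alone, 2281 and 2772. KRT72, KRT33A and KRT33B had them in the squamous lines alone, with 693, 684 and 347 in HCC95 and 804, 374 and 2125 in BICR31. KRT39 held 293 in H358 replicate 2, 999 in HCC95, 2195 in BICR31, and 1839 and 1251 in Ishikawa. KRT81 held peaks in 7 libraries, up to 2103 called bases, and KRT86 in 6, up to 2133, both highest in Ishikawa replicate 1. KRT27, KRT37 and KRT32 had a peak in BICR31 (575, 1464 and 396 called bases) and in 1 further library each. None of these hair genes had a peak at its start in any library.

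**Figure D5:**
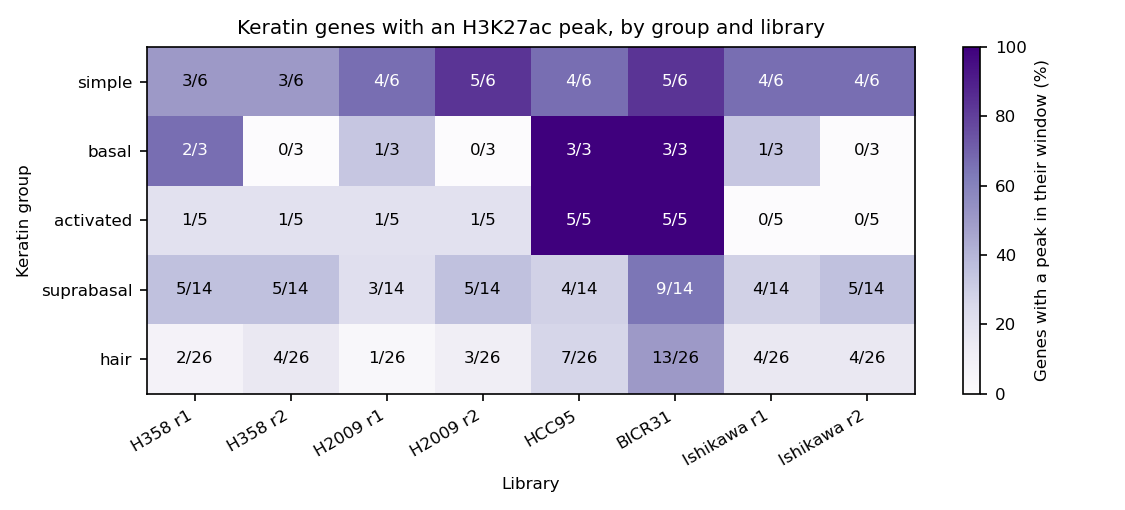
Number of keratin genes with a peak in their window over all genes of the group, by group (rows) and library (columns), shaded by the percent of genes. HCC95 and BICR31 hold 3 of 3 basal and 5 of 5 activated genes, against at most 2 of 3 and 1 of 5 in the other libraries. Of 15 kb tiles with a peak in any library, 66.9% had one in BICR31, 40.4% in HCC95 and 36% to 41.4% in the others.

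Neighbouring peaks were joined into clusters and ranked within each list by width times the authors' value. In BICR31 the highest keratin cluster was rank 4 of 29736, at chr12:52540211-52643558, with 13 peaks over 103 kb that include KRT80 and KRT7 and reach past the window's edge. In HCC95 the highest was rank 32 of 19855, at chr17:39661209-39705511, with 6 peaks over 44.3 kb that include KRT13, KRT15 and KRT19. In BICR31 the KRT6A to KRT5 cluster ranked 818 and the KRT16 to KRT17 cluster 968, and in HCC95 the KRT16 to KRT17 cluster ranked 1006. In Ishikawa the highest ranked 337 of 18937 in replicate 1 and 104 of 18626 in replicate 2 and touches the window of KRT81, while the region of KRT8 ranked 735 and 2650. The highest squamous clusters thus included the simple genes KRT7 and KRT19 beside genes of other groups. In BICR31 the window of KRT80 held 4274 called bases and that of KRT7 held 3598. In HCC95 the region at the start of the basal gene KRT15 held 4081, and the start region of KRT19 held 1213. Ranks hold within a list and were not compared between lists.

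In the 359 kb between KRT40 and KRT33A, which holds 34 protein-coding KRTAP genes for hair keratin-associated proteins and was chosen after its values were seen, H358 had 0 peaks in both libraries and H2009 had 8 and 10. HCC95 had 4, BICR31 had 11 and Ishikawa had 6 and 5. Of its 20 merged regions, 7 had a peak in both H2009 libraries and 0 in an H358 library. Across the genome, 16.4% of the 15816 regions with a peak in both H2009 libraries had none in H358.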

How the data were processed

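Peak lists of H3K27ac from 12 libraries were used, 8 for the comparisons and 4 others of H2009 as values. Reads were aligned with BWA to hg19, per the submitters' processing notes. For the caller, its version, the control and any pooling, the labels and files used here give no name. Each peak's fold enrichment, a ratio, and its −log10 p and −log10 q stand in the deposited narrowPeak and broadPeak lists, and the deposited Ishikawa lists hold a score. That score stood in for both the fold enrichment and −log10 q where lists were ranked. Summit offsets were not used. Members, gene lists and markers were chosen with earlier results of these data known.

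From the lists, peaks were merged (at least 1 bp shared), a region took the pattern of lines with a peak in every library and none elsewhere, and called bases were counted in gene windows (5 kb flank) and per Mb of called bases of the list. Named genes were the 9 compared and any other keratin gene with peaks in at least 2 of 8 libraries, 30 of 54 in all. The genome tiles of 15 kb were added as a background after seeing the data. KRT20 and KRT34 were named after their values were seen. Python 3.11.15, numpy 2.4.6 and pandas 2.3.3 were used. Merging, patterns and base counts were checked on simulated peaks. Replicates are labelled as such, and nothing says that they came from separate cultures. They were averaged before the 5 lines were permuted, so those p-values rest on differences between lines. The p-values with the 8 libraries permuted may measure technical spread. Alternatives were other list cuts, flanks, overlaps, stitching distances and left-out libraries. Lists of equal length were cut to 23400 peaks, the length of the HCC95 list, which therefore stayed whole. Gene positions came from no deposited file.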

Additional observations from a re-analysis of the deposited data

How the results depend on the processing

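Of 126 alternatives for single genes, 113 kept the sign of the difference, 9 turned, and in 4 the difference was 0 (KRT5, KRT6A, KRT14 and KRT17 in the higher-ranked 50%). Some of the 113 could not turn. Permuting the 8 libraries leaves the difference as it is. Leaving out a replicate changes nothing where both replicates of its line hold 0 called bases, as for KRT6A and KRT17. The test over lines cannot pass 0.05, so its p says nothing of stability, and 5 genes had an exact permutation p of 0.0357 with libraries permuted. Differences that turned (squamous minus other, called bases per Mb of the list unless stated) were KRT16 at a 20 kb flank (23.5), unscaled (470 called bases), without H2009 replicate 1 (0.000674), without H358 replicate 1 (3.84; −4.73 to 3.84 over left-out replicates) and by −log10 q in equal lists (9.03). KRT18 turned in the higher-ranked 50% (25.5) and in equal lists (5.37), KRT19 in the higher-ranked 50% (−34.6) and KRT8 in the 50% by −log10 q (3.27). Ranking by −log10 q was chosen after seeing the data.

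The number of merged keratin regions changes with the setting: 41 in the 50%, 87 in equal lists, 51 and 93 in those by q, 94 without BICR31 and 128 without Ishikawa replicate 1. Region counts for HCC95 with BICR31 (13) became 1 in the 50%, 3 in equal lists, 7 at 50% cover and 2 in the 50% by q. Those of BICR31 (38) became 10, 4, 20 (50% by q) and 10 (equal by q). Those of HCC95 (7) became 1, 20, 13 (50% cover), 1 (50% by q), 12 (equal by q) and 21 without BICR31. As shares of keratin against all regions, BICR31 had 24.4% against 21.9% in the 50%, 4.60% against 10.98% in equal lists, 39.2% against 21.3% in the 50% by q and 10.8% against 9.45% in equal lists by q. HCC95 had 2.44% against 5.17%, 22.99% against 10.6%, 1.96% against 5.93% and 12.9% against 10.9% in the same order, 10.2% against 7.81% at 50% cover and 22.3% against 12.3% without BICR31. Those of Ishikawa (7) became 13 at 50% cover (10.2% against 9.32%), 1 in the 50% by q (1.96% against 2.89%) and 12 without Ishikawa replicate 1 (9.375% against 9.36% of all regions); the range over left-out Ishikawa and other replicates was 7 to 12. Those of all lines (7) became 1 (2.44% against 10.5%), 3 (3.45% against 12.3%), 0 (50% cover, against 0.130%) and 1 (50% by q, 1.96% against 11.4%). The cause of these changes was not tested.

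The stratified share in BICR31 (57.1%) became 60.01% at 2 kb, 49.1% at 20 kb, 46.7% by midpoint, 0% in the 50%, 0% in equal lists, 68.3% in the 50% by q and 71.3% in equal lists by q. In HCC95 (50.1%) it became 51.4% and 47.7% at 2 and 20 kb, 61.5% by midpoint, 0% in the 50% and 0% in the 50% by q. In H2009 (19.03%) it became 27.1% and 14.6% at 2 and 20 kb, 20.8% by midpoint, 100% in the 50%, 75.9% in equal lists and 32.3% in the 50% by q. In H358 (27.1%) it became 100% in the 50%, 100% in equal lists and 50% in the 50% by q, where replicate 2 had no called bases in the first and the replicates were 100% and 0% in the last, and in Ishikawa (3.76%) 10% by midpoint. Clusters in the top 5% moved from 1 to 2 in H2009 replicate 2 and from 1 to 0 in H358 replicate 1 at 20 kb stitching, and from 2 to 4 in Ishikawa replicate 2 at 5 kb. No paired analysis was possible because the groups are different cell lines, with no library of one matched to a library of another. The lists hold no read counts, so depth sets no stated limit here.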

Other observations

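A further 4 lists came from H2009, with the words e3KRAB1, e3KRAB2, Control and Empty in their titles, which the labels do not explain. They held 2315, 1375, 3250 and 1960 peaks, of which 2, 2, 4 and 3 lay in the keratin windows. None lay in the windows of the simple or stratified genes. Of the 24 regions that both unmodified H2009 libraries hold in the windows, these lists recovered 2, 2, 4 and 2. The share recovered across the genome was not counted, so these counts say nothing particular of keratin regions. The 4 lists are also short beside the 26887 and 26412 peaks of the unmodified H2009 lists.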
